A study of Arabidopsis thaliana with 16 samples.

Results

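The regions described here are the transposase hypersensitive sites (THSs, stretches of open chromatin that the Tn5 transposase cuts often) at the genes of 6 clade A type 2C protein phosphatases and 3 SnRK2 protein kinases of abscisic acid signalling in Arabidopsis. A THS was a member when it overlapped a gene or the 2 kb upstream of its start in the TAIR10 annotation. This gave 44 of the 65351 THSs, 29 at the phosphatase genes and 15 at the kinase genes. The phosphatase genes were ABI1 (AT4G26080, 6 THSs), ABI2 (AT5G57050, 4), HAB1 (AT1G72770, 6), HAB2 (AT1G17550, 2), PP2CA (AT3G11410, 6) and AHG1 (AT5G51760, 5). The kinase genes were OST1 (AT4G33950, 4), SnRK2.2 (AT3G50500, 6) and SnRK2.3 (AT5G66880, 5). No THS was shared between these genes. The rule for a THS used positions and no measured value, but the genes were chosen with earlier results of these data known.

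Nuclei were purified from 3-day-old seedlings by INTACT, which captures nuclei that carry a biotin tag in a chosen cell type, and were profiled by ATAC-seq, which counts the positions where the transposase cuts. All lines were in the Col-0 background and carried the biotin ligase BirA under the ACT2 promoter, and the lines differ in the promoter that drives the biotin-accepting nuclear envelope tag. AtML1 marked protoderm (Proto, 3 libraries), SPCH meristemoid mother cells with early meristemoids (MMC, 3), MUTE late meristemoids on the way to guard mother cells (M, 4), FAMA guard mother cells on the way to guard cells (GMC, 3) and GC1 mature guard cells (GC, 3). Each promoter is active over a span of the lineage, and a library is a pool of nuclei from many seedlings, so a group holds the cells in which its promoter is or was active. Nothing in the labels ties replicates to separate plant cultures, and p-values measure the spread between these libraries.

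Abscisic acid is the hormone that closes stomata in drought and holds seeds dormant. Receptors of the PYR/PYL/RCAR family that have bound the hormone block clade A phosphatases. In its absence these phosphatases keep SnRK2 kinases dephosphorylated and inactive. Freed kinases phosphorylate transcription factors of the ABF family, which bind the ABRE element with its ACGTG core, and in guard cells the anion channel SLAC1. Mature guard cells are the classical site of this response, and OST1 is the kinase known best for stomatal closure.

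The sequences of 5 member THSs that the comparisons below turn on are given 5′ to 3′ on the strand of the gene, in coordinates of the TAIR10.1 RefSeq assembly. The first 3 are the 200 bases around the midpoints of the strongest upstream THSs of ABI1, ABI2 and PP2CA, which were more accessible in MMC and M. The other 2 are the coding bases of exon THSs of HAB1 and SnRK2.2, which were more accessible in GMC and GC. Capitals mark every match on either strand to the ABRE core ACGTG, to a longer form of it written ACGTGNC and to the GA repeat GAGAGAGA.
ABI1 upstream THS_46254, chr4:13223511-13223710, minus strand: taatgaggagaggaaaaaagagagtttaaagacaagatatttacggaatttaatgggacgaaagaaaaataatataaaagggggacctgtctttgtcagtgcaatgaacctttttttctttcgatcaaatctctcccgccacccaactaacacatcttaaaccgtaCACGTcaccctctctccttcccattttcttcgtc
ABI2 upstream THS_62367, chr5:23085966-23086165, plus strand: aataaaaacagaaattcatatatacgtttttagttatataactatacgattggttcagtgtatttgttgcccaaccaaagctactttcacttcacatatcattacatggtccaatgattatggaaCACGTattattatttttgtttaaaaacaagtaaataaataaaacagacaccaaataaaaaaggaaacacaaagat
PP2CA start THS_30422, chr3:3585930-3586129, minus strand: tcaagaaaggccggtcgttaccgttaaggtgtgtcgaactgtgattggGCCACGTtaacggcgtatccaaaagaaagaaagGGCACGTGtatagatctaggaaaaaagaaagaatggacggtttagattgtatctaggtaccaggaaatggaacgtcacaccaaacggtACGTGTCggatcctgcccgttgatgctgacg
HAB1 coding exon THS_15489, chr1:27392582-27392731, plus strand: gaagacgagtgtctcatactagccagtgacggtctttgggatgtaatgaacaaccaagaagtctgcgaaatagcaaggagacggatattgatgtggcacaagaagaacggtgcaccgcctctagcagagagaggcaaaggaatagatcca
SnRK2.2 coding exon THS_37316, chr3:18741805-18741959, minus strand: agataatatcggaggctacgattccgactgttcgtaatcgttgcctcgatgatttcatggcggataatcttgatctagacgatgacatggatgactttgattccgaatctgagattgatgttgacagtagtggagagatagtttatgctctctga
The PP2CA stretch, from -279 to -80 bases relative to the gene start, held 3 capital runs, and each contained an ACGTGNC match. The ABI1 and ABI2 stretches held 1 ACGTG match each. The 150 HAB1 bases and the 155 SnRK2.2 bases held none.

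The sum of cutcounts over all THSs lay between 3412226 and 13596509 per library. Scaled cutcounts are these cutcounts divided by 1 size factor per library. As a check of the labels, the driver promoter, of which each line carries an extra copy, was compared between lines. Each was highest in its own line at the THS with the smallest p. At the AtML1 THS_45044 the mean scaled cutcount was 1422 in Proto against 555.8 or less, and at the FAMA THS_33854 it was 3645 in GMC against 445.5 or less. At the SPCH THS_61260 it was 4644 in MMC against 460.2 or less in the other states. At the MUTE THS_29396 it was 2168 in M against 365.6 or less, and at the GC1 THS_05424 it was 379.9 in GC against 115.4 or less. Of 9 THSs at guard cell marker genes (MYB60, KAT1, SLAC1), 0 passed an adjusted p of 0.05 in GC against the other states (limma, Benjamini-Hochberg), and 0 had an unadjusted p under 0.05. Their summed scaled cutcounts lay between 640.8 and 733.3 in GC and between 540.6 and 892.9 in M, and HT1 had no THS. The sums were 604 to 655.3 in Proto, 582 to 637.6 in MMC and 552.1 to 595.8 in GMC. All GC libraries thus lay above all MMC and GMC libraries and overlapped Proto and M. No single THS of these genes set GC apart in the test. M replicate 1 stood apart from the other M libraries at several member THSs, and calls are also counted without it.

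Member THSs were ordinary in size and level. Their lengths ran from 150 to 969 bp with a median of 250, and the median of their mean scaled cutcounts was 54.9 against 53.9 over all THSs. Of the 44, 38 had at least 10 scaled cutcounts in every library. Between genes the strongest THS was compared per kb of its length. PP2CA led with 881.5 scaled cutcounts per kb at its gene start, followed by ABI1 with 823.0 and ABI2 with 548.8 at THSs upstream of the gene. HAB2 had 501.7 and SnRK2.3 335.3 per kb. The strongest THSs of HAB1, AHG1, OST1 and SnRK2.2 lay between 263.6 and 298.9 per kb, near the median of 247.9 over all THSs. The ABI1 THS lay nearer to the start of AT4G26090 than to that of ABI1, and the ABI2 THS_62366 and THS_62367 lay nearer to the start of AT5G57040, so they can belong to either gene of the pair.

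**Figure D1:**
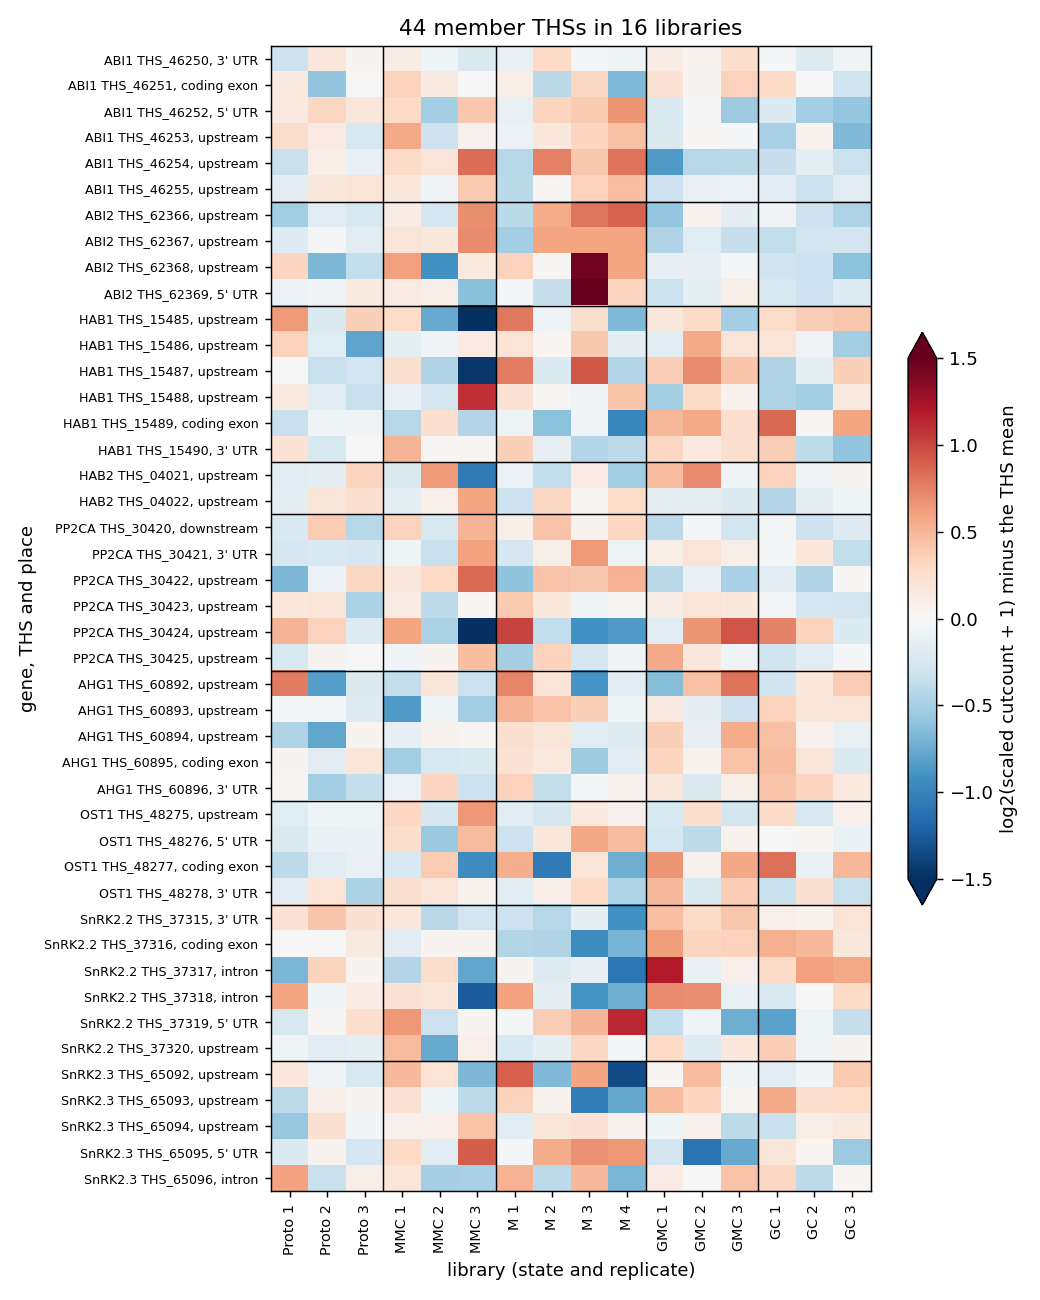
Heat map of the 44 member THSs (vertical axis, named by gene, THS and place) in the 16 libraries (horizontal axis), with colour giving log2(scaled cutcount + 1) minus the mean of that THS. ABI1 THS_46254 and ABI2 THS_62366 and THS_62367 are red in MMC replicate 3 and in M replicates 2, 3 and 4 and blue in M replicate 1, and the SnRK2.2 exon THS_37316 is blue in all M libraries and red in GMC and GC.

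The first comparison asked whether accessibility at these genes differs before and after commitment to the guard mother cell, with MMC and M (7 libraries) against GMC and GC (6 libraries). It called 12 of the 44 member THSs at an adjusted p under 0.05 (27.3%; limma on log2(scaled cutcount + 1), Benjamini-Hochberg over all THSs), while 33.3% of all 65351 THSs were called. The members therefore changed about as often as THSs in general. Of the 12, 7 were more accessible in MMC and M, and these lay upstream or in the 5′ UTR of ABI1, ABI2, PP2CA, SnRK2.2 and SnRK2.3. The other 5 were more accessible in GMC and GC and lay in coding exons, an intron or a 3′ UTR of HAB1, OST1 and SnRK2.2. Over all THSs 16.6% were called higher in MMC and M and 16.7% higher in GMC and GC. The median log2 fold change of the members was -0.01 and that of all THSs -0.02. Without M replicate 1, 19 members were called against 48.4% of all THSs, 11 higher in MMC and M and 8 lower. Without MMC replicate 3 it was 6 against 16.2% of all THSs, and without GMC replicate 1 it was 7 against 17.6%.

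**Figure D2:**
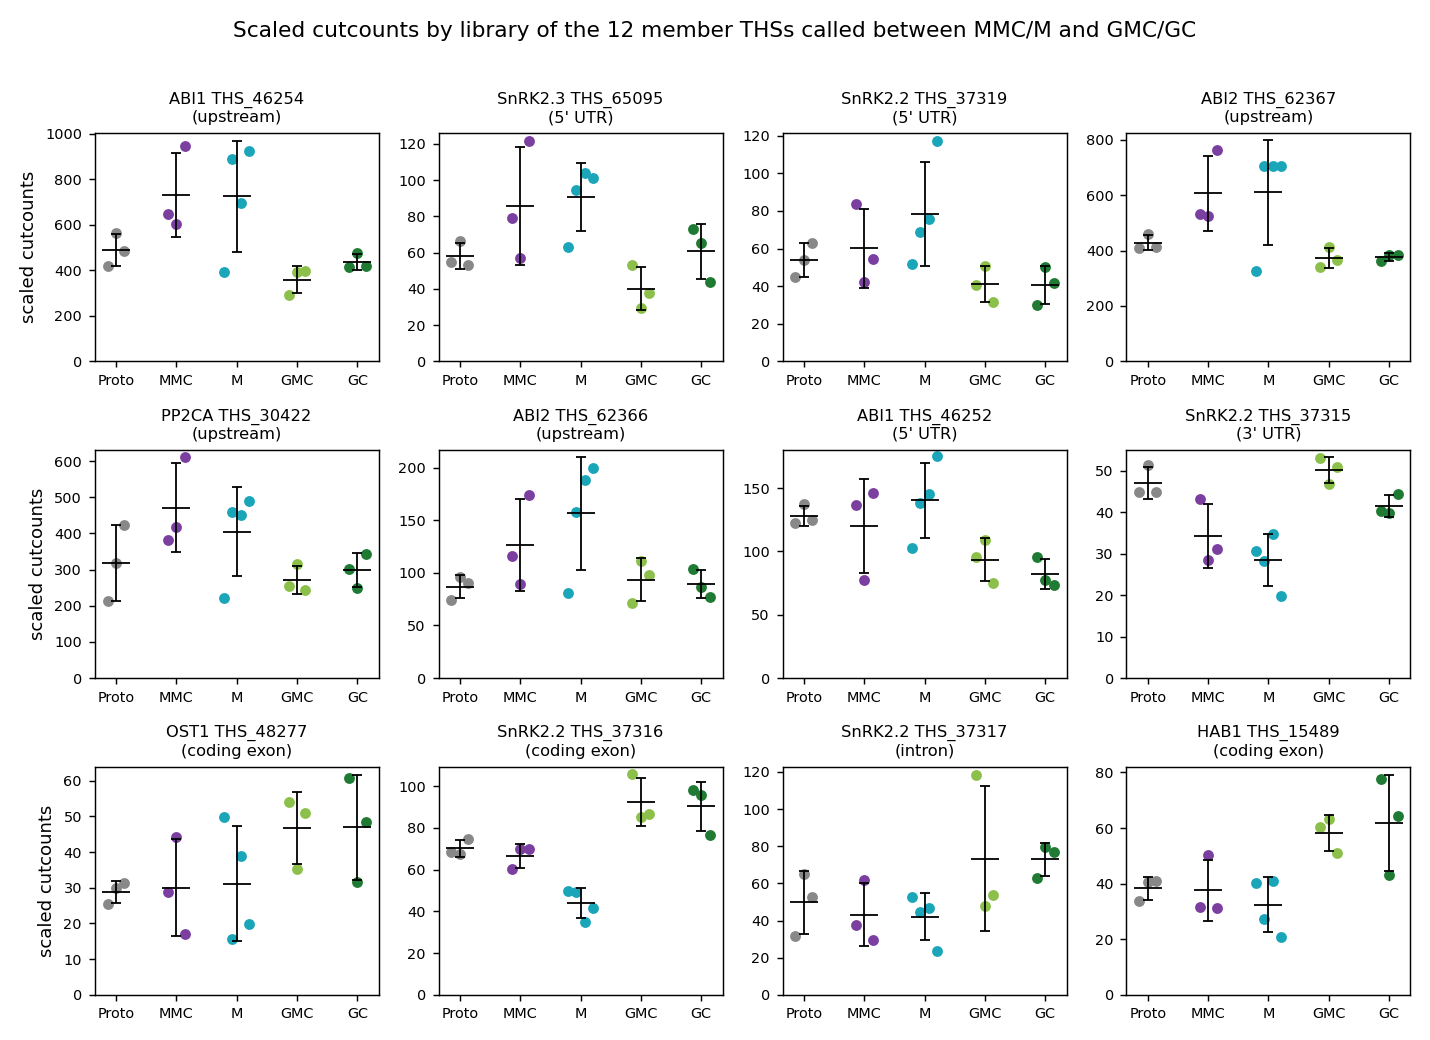
Scaled cutcounts (vertical axis, from 0) of the 12 called member THSs in each library (points) by state (horizontal axis), with bars for the mean ± SD. The 7 upstream and 5′ UTR THSs have their highest means in MMC or M, and M replicate 1, the leftmost M point, lies at the level of GMC and GC at ABI1 THS_46254, ABI2 THS_62366 and THS_62367, and PP2CA THS_30422.

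ABI1 and ABI2 encode the founding phosphatases of the pathway, and dominant alleles of both make plants insensitive to the hormone. The strongest ABI1 THS (THS_46254, chr4:13223271-13223950, 680 bp, midpoint at -1234 bp from the start) had scaled cutcounts of 645.7, 603.2 and 944.6 in MMC and 392.7, 887.3, 696.8 and 926.6 in M. It had 291.7, 390.8 and 396.2 in GMC, 413.2, 476.0 and 420.3 in GC, and 419.7, 563.2 and 486.1 in Proto. All MMC libraries lay above all GMC and GC libraries, and among the M libraries only replicate 1 fell into the later range. The log2 fold change of MMC and M over GMC and GC was 0.83 ± 0.20 (SE, adjusted p = 0.0077, limma with Benjamini-Hochberg). It was 0.97 without M replicate 1 (adjusted p = 4.49e-05, limma). The call was kept in 27 of 30 alternative analyses, with log2 fold changes from 0.21 to 0.97. At the THS over the ABI1 start (THS_46252, chr4:13222162-13222411) the log2 fold change was 0.54 ± 0.17 (adjusted p = 0.023, limma). Its mean fell from 140.4 ± 29.7 (SD, n = 4) in M to 93.5 ± 17.0 (n = 3) in GMC and 82.1 ± 11.8 (n = 3) in GC. The exon and 3′ UTR THSs at the far end of ABI1 had log2 fold changes of -0.10 and -0.04, and neither passed the test.

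At ABI2 the strongest THS (THS_62367, chr5:23085622-23086509, 888 bp, midpoint at -1057 bp from the start) had 533.5, 523.5 and 762.5 scaled cutcounts in MMC and 324.5, 705.6, 705.0 and 706.3 in M. It had 341.0, 412.9 and 367.7 in GMC, 360.7, 384.8 and 385.0 in GC, and 410.5, 459.0 and 414.5 in Proto. M replicate 1 was the lowest of all 16 libraries there, and the other M libraries were all above GMC and GC. The log2 fold change was 0.65 ± 0.20 (SE, adjusted p = 0.016, limma with Benjamini-Hochberg) and 0.79 without M replicate 1. The call was kept in 26 of 30 alternative analyses, with log2 fold changes from 0.04 to 0.79. The neighbouring THS_62366, at -1752 bp, moved in the same direction, with a log2 fold change of 0.57 ± 0.20 (adjusted p = 0.032, limma). It was 0.71 without M replicate 1 (adjusted p = 0.0013), and the call was kept in 15 of 30 alternative analyses. At the THS over the ABI2 5′ UTR, chosen after its values were seen, M replicate 3, the library with the fewest cutcounts, had 153.2 while the other 15 libraries had between 32.7 and 64.1. That THS had a log2 fold change of 0.31 with an adjusted p of 0.28 (limma).

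PP2CA, a phosphatase that also acts on the anion channel SLAC1, had its strongest THS over the gene start (THS_30422, chr3:3585828-3586231), the sequence with the 3 ACGTGNC matches. It had 381.7, 419.2 and 611.6 scaled cutcounts in MMC and 222.8, 458.1, 451.6 and 489.3 in M. It had 254.8, 316.1 and 242.4 in GMC, 301.7, 249.1 and 343.6 in GC, and 212.9, 319.5 and 423.6 in Proto. All MMC libraries and 3 of the 4 M libraries were above every GMC and GC library. On the log2 scale the difference was 0.58 ± 0.21 (SE, adjusted p = 0.034, limma with Benjamini-Hochberg) and 0.71 without M replicate 1. The call was kept in 19 of 30 alternative analyses, with log2 fold changes from 0.03 to 0.71. The other 5 PP2CA THSs had log2 fold changes from -0.83 to 0.42, and none passed.

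HAB1 is a close relative of ABI1 and ABI2. Its strongest THS per kb lay in a coding exon near the end of the gene (THS_15489, chr1:27392582-27392731) and moved the other way. It had 31.4, 50.2 and 31.1 scaled cutcounts in MMC and 40.3, 27.4, 40.9 and 21.0 in M. It had 60.3, 63.2 and 50.9 in GMC, 77.8, 43.3 and 64.4 in GC, and 33.6, 40.6 and 41.0 in Proto. All GMC libraries were above all MMC and M libraries, while the lowest GC library fell inside the MMC range. The log2 fold change of MMC and M over GMC and GC was -0.78 ± 0.20 (SE, adjusted p = 0.0090, limma with Benjamini-Hochberg). With a correction for GC content it was -0.26 and no longer called (adjusted p = 0.25). The 4 THSs upstream of HAB1 ran from -0.48 to 0.36, and none passed.

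HAB2 and AHG1, the latter a phosphatase known from seeds, had no called THS. The strong HAB2 THS over the gene start (THS_04022, chr1:6033542-6034317) had means of 442.9 (MMC), 409.5 (M), 342.9 (GMC) and 333.3 (GC). Its log2 fold change was 0.31 with a 95% interval from -0.05 to 0.67 (adjusted p = 0.17, limma), so a difference of the size seen at ABI2 lies inside the interval, and it was -0.26 with cyclic loess scaling. The AHG1 exon THS_60895 (chr5:21027342-21027611) had a log2 fold change of -0.41 with an interval from -0.75 to -0.07 and an adjusted p of 0.058 (limma). The log2 fold changes of the 5 AHG1 THSs ran from -0.41 to -0.15, although that of THS_60895 was 0.13 with a correction for GC content. Without M replicate 1 both genes had a called THS, with 0.37 at HAB2 and -0.46 at AHG1.

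Among the kinases, SnRK2.2, which acts with SnRK2.3 in seeds and roots, had the most called members, 4 of 6, and they did not move together. The THS over its start (THS_37319, chr3:18744002-18744251) had 83.5, 42.3 and 54.5 scaled cutcounts in MMC and 51.8, 68.9, 75.6 and 117.1 in M. It had 40.6, 50.9 and 31.6 in GMC, 29.98, 50.3 and 41.4 in GC, and 44.8, 53.6 and 63.1 in Proto. All M libraries were above all GMC and GC libraries, and 1 MMC library fell into their range. The log2 fold change was 0.71 ± 0.20 (SE, adjusted p = 0.014, limma with Benjamini-Hochberg).

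The THS over the SnRK2.2 coding exon with the stop codon (THS_37316, chr3:18741681-18741959) had 60.2, 69.9 and 70.0 scaled cutcounts in MMC and 49.9, 49.3, 34.7 and 41.4 in M. It had 105.9, 85.4 and 86.6 in GMC, 98.4, 95.9 and 76.7 in GC, and 68.2, 67.4 and 74.8 in Proto. Here every MMC and M library lay below every GMC and GC library. It was the only member without overlap, 2.27% of the 44 against 3.02% of all THSs. The log2 fold change was -0.75 ± 0.15 (SE, adjusted p = 0.0049, limma with Benjamini-Hochberg), the smallest adjusted p among the members. An intron THS (THS_37317) and a 3′ UTR THS (THS_37315) of the same gene also were higher in GMC and GC, with log2 fold changes of -0.77 ± 0.24 and -0.56 ± 0.19. In log2 units the start THS minus the exon THS was 0.78 ± 0.64 (SD, n = 4) in M. It was -0.39 ± 0.19 (n = 3) in Proto, -0.20 ± 0.60 (n = 3) in MMC, -1.17 ± 0.38 (n = 3) in GMC and -1.16 ± 0.45 (n = 3) in GC, so its mean was positive only in M, and the highest MMC library, at 0.47, lay inside the M range. This difference is a description of values already tested singly.

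SnRK2.3 repeated the pattern of the SnRK2.2 start THS near its own start. The THS in its 5′ UTR (THS_65095, chr5:26710342-26710558) had 79.0, 57.1 and 121.4 scaled cutcounts in MMC and 63.4, 94.8, 104.2 and 101.1 in M. GMC had 52.9, 29.6 and 37.7, GC had 73.1, 65.5 and 43.7, and Proto had 55.0, 66.7 and 53.4. All M libraries were above all GMC libraries, while GC overlapped both MMC and M. The log2 fold change was 0.82 ± 0.19 (SE, adjusted p = 0.0070, limma with Benjamini-Hochberg). The strongest SnRK2.3 THS, upstream of the gene (THS_65094, chr5:26709236-26710204), had 0.21 with an interval from -0.15 to 0.57, was not called and had -0.32 with cyclic loess scaling.

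OST1 had no called THS at its start. The THS there (THS_48276, chr4:16271742-16272066) had means of 93.7 (MMC), 103.5 (M), 75.0 (GMC) and 84.2 (GC), and its log2 fold change was 0.26 with an interval from -0.10 to 0.63 (adjusted p = 0.25, limma with Benjamini-Hochberg). The coding exon THS_48277 (chr4:16272302-16272451) was higher in GMC and GC, with a log2 fold change of -0.69 ± 0.26 (adjusted p = 0.042). It had 28.7, 44.3 and 17.1 in the MMC libraries and 49.9, 15.7, 38.8 and 19.9 in the M libraries. GMC had 54.2, 35.3 and 50.9 and GC had 60.9, 31.6 and 48.3. The groups overlapped, and the call was lost in 19 of 30 alternative analyses.

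**Figure D3:**
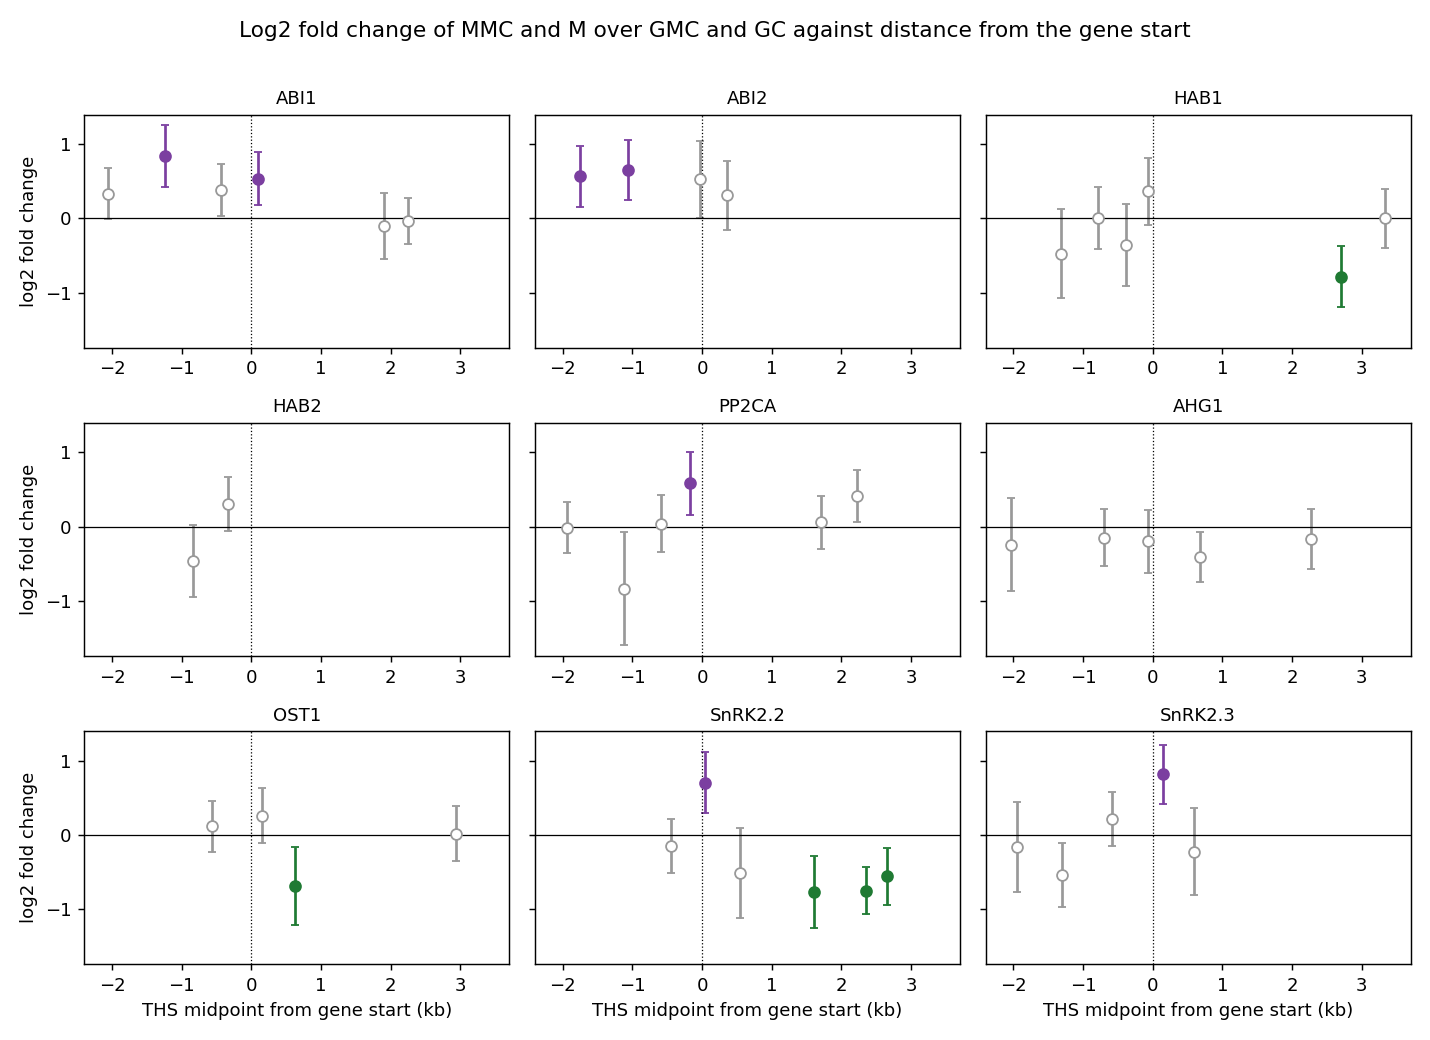
Log2 fold change of MMC and M over GMC and GC (vertical axis, bars for the 95% interval) against the distance of the THS midpoint from the gene start in kb (horizontal axis), in a panel for each of the 9 genes. Filled purple points were called higher in MMC and M and lie upstream of the gene or in its 5′ UTR. Filled green points were called higher in GMC and GC and lie in a coding exon, an intron or a 3′ UTR. Open grey points were not called.

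The split between THSs upstream or in a 5′ UTR and THSs in coding exons held for the whole table. Of the 24 members upstream of their gene 4 were called higher in MMC and M and 0 lower, and of the 5 in a 5′ UTR 3 were higher and 0 lower. Of the 5 members in coding exons 0 were higher and 3 lower, of the 3 in introns 1 was lower, of the 6 in a 3′ UTR 1 was lower, and the 1 downstream of its gene was not called. Over all THSs, 22.5% of those upstream of a coding gene and 28.6% of those in a 5′ UTR were called higher in MMC and M, against 7.30% and 3.02% called lower. In coding exons 50.7% were called higher in GMC and GC and 2.99% in MMC and M. In introns these shares were 25.7% and 7.76%. In 3′ UTRs, at 12.5% and 11.5%, the whole table showed no such split. The median log2 fold change in coding exons was -0.69 for the members and -0.59 for all THSs. Level went with the same split. The Spearman correlation of the log2 fold change with the mean scaled cutcount was 0.61 across the 44 members and 0.60 across all THSs, which share libraries and are not independent. Of all THSs in the top 10% by level, 59.3% were called higher in MMC and M. Cyclic loess scaling, which removes trends with level between libraries, left 4 of the 12 calls. Under it the log2 fold change became 0.21 at ABI1 THS_46254 (adjusted p = 0.098, limma with Benjamini-Hochberg), 0.04 at ABI2 THS_62367 (adjusted p = 0.75) and 0.03 at PP2CA THS_30422 (adjusted p = 0.84). SnRK2.3 THS_65095 had 0.79 (adjusted p = 0.011), SnRK2.2 THS_37319 0.80 (0.016) and THS_37316 -0.80 (0.0051), and HAB1 THS_15489 -0.56 (0.044), all still called under that scaling. The place and level of the members thus go with their direction as they do for THSs in general, and their separate parts were not tested.

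**Figure D4:**
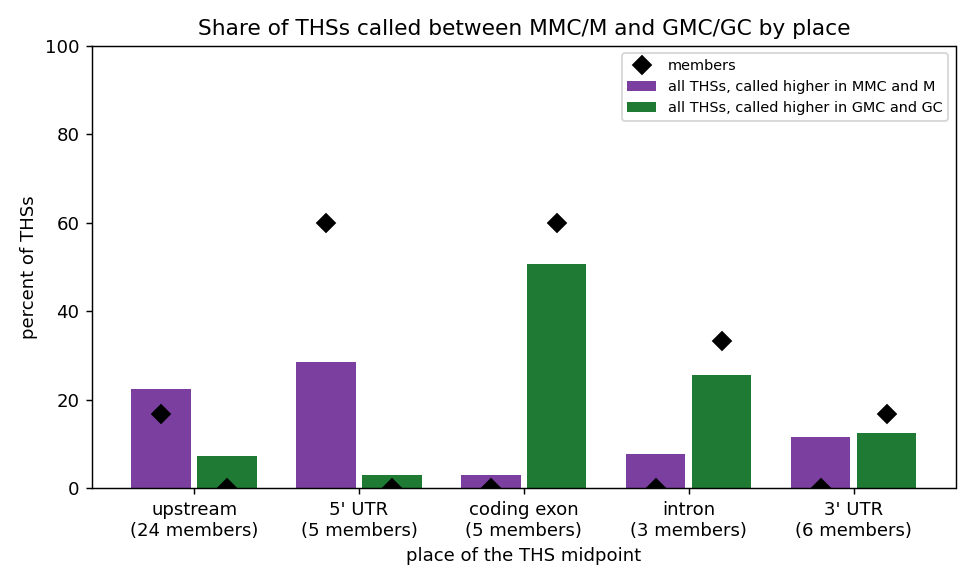
Percent of all THSs (bars) and of member THSs (diamonds) called higher in MMC and M (left of each pair) or in GMC and GC (right), by the place of the THS midpoint (horizontal axis). Both for the members and for all THSs, calls upstream and in 5′ UTRs are mostly higher in MMC and M, and calls in coding exons are mostly higher in GMC and GC. Members are placed relative to their own gene and all THSs relative to any coding gene.

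Signal concentration differed between libraries. The share of cutcounts on the top 10% of THSs was 41.7 to 43.1% in GMC, below every library of MMC (43.9 to 46.6%), M (44.8 to 47.9%) and GC (44.4 to 46.3%). It was 39.5 to 45.5% in Proto. Of the later group, GC overlapped MMC and M while GMC did not. The part of this share in the calls was not tested apart from state. With that share as a covariate 4 members and 7.64% of all THSs were called. The members were HAB1 THS_15489, SnRK2.2 THS_37316 and THS_37317, and SnRK2.3 THS_65095. With the share of reads in peaks as a covariate 0 members were called (limma; 4 with an unadjusted p under 0.05), and 10 THSs in the whole table. The supplement these shares come from lists fewer reads for M replicate 1 than the deposited table holds cutcounts. Cuts were taken from both fragment ends, and whether the shares belong to the libraries they name was not tested. THSs at marker genes of other cell types (root hair, trichome, phloem, mesophyll) were called at 7 of 19 (36.8%, against 33.3% of all THSs), 5 higher in MMC and M and 2 lower. Their summed scaled cutcounts ran from 3438 to 3984 in MMC and from 2222 to 4814 in M, while GMC had 2149 to 2295 and GC 2651 to 3028, and none of these THSs was at 0 in any library. Their part in the member results was not tested.

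Of the successive steps, only M to GMC called members. It called 6 of 44 (13.6%; limma, Benjamini-Hochberg) where 10.7% of all THSs were called. Of these, 3 were higher in GMC (4.79% of all THSs) and 3 lower (5.87%). SnRK2.2 THS_37316 rose by 1.07 ± 0.21 on the log2 scale (SE, adjusted p = 0.028), HAB1 THS_15489 by 0.87 ± 0.28 (adjusted p = 0.045) and SnRK2.2 THS_37315 by 0.83 ± 0.25 (adjusted p = 0.041). SnRK2.3 THS_65095 fell by 1.17 ± 0.26 (adjusted p = 0.028), ABI1 THS_46254 fell by 0.95 ± 0.28 (adjusted p = 0.037) and SnRK2.2 THS_37319 fell by 0.88 ± 0.28 (adjusted p = 0.044). The count moved strongly with single libraries. Without M replicate 1 it was 16, with 38.6% of all THSs called. Without M replicate 2, 3 or 4 or any single GMC library it was 0, with 0.00612% to 0.0107% of all THSs called. In these fits 6 to 13 members had an unadjusted p under 0.05 (limma).

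The other steps called 0 members. From Proto to MMC, 0 passed with limma and 0 with edgeR, 1 had an unadjusted p under 0.05, and 0.00765% of all THSs were called. From MMC to M, 0 passed with limma and with edgeR, 3 had an unadjusted p under 0.05, and 0.00459% of all THSs were called. From GMC to GC, 0 passed with limma and with edgeR, 1 had an unadjusted p under 0.05, and 0.00765% of all THSs were called. Median absolute log2 changes of the members were 0.24, 0.19 and 0.19 in these steps and 0.37 from M to GMC.

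The guard cell state, the classical site of the abscisic acid response, was compared with the rest. In GC against the mean of the other 4 states 0 of 44 members passed (limma, Benjamini-Hochberg; 0 with edgeR), and 0.00306% of all THSs were called. An unadjusted p under 0.05 was found for 5 members (limma; 11.4% of members and 7.44% of all THSs). The log2 differences ran from -0.52 to 0.59 with a median of -0.06. For the OST1 start THS_48276 the difference was -0.01 with an interval from -0.43 to 0.41, for ABI1 THS_46254 -0.31 with an interval from -0.79 to 0.17, and for SnRK2.2 THS_37317 0.59 with an interval from 0.03 to 1.14 (adjusted p = 0.65). The OST1 interval leaves room for a difference of 0.41 in either direction. The ABI1 interval reaches further down than up, and the SnRK2.2 interval lies above 0. By state means, 19 members were highest in GMC (29.4% of all THSs), 11 in M (23.4%), 8 in MMC (21.4%), 6 in GC (15.7%) and 0 in Proto (10.1%). The lowest mean was in GC for 13 members (13.2% of all THSs), in Proto for 10 (13.4%) and in each of the other states for 7. These orders are descriptions without a test.

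The test over all 5 states at once called 0 members (limma, Benjamini-Hochberg), where 0.0275% of all THSs were called. It gave 11 members an unadjusted p under 0.05 (limma; 25% of members and 24.9% of all THSs). edgeR called 1 member and 979 of the 65351 THSs, and limma-voom called 5 members and 5947 of the THSs. SnRK2.2 THS_37316 came nearest, with an adjusted p of 0.066 and means of 92.6 ± 11.5 (SD, n = 3) in GMC, 90.3 ± 11.9 (n = 3) in GC, 70.2 ± 4.1 (n = 3) in Proto, 66.7 ± 5.6 (n = 3) in MMC and 43.8 ± 7.2 (n = 4) in M. In that order GMC and GC differed by less than their spread, and so did Proto and MMC.

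The non-member THSs whose log2 values over the 16 libraries were most like those of THS_37316 had Pearson correlations of 0.91 to 0.92 with it. They were THS_34149, in a coding exon and nearest to the start of LOH1 (AT3G25440), THS_24622, in a coding exon nearest to BLH1 (AT2G35940), THS_28093 nearest to AT2G47890, THS_65184, in a coding exon nearest to AT5G67200, and THS_36278 nearest to AT3G46380. At each the lowest state mean was in M, with 14.6 at THS_65184 and 112.3 at THS_24622.

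Other genes of the pathway were called in the first comparison about as often as the members. The 38 genes of receptors, the remaining clade A phosphatases, the remaining SnRK2 kinases, transcription factors and guard cell targets held 175 THSs. Of these, 30 were called higher in MMC and M and 18 lower (27.4%, limma with Benjamini-Hochberg). The members had 27.3% called. Among all THSs 33.3% were called, 16.6% higher and 16.7% lower. The median log2 fold change of the 175 was 0.13 against -0.02 over all THSs. From M to GMC 12 of the 175 were called (6.86%), against 13.6% of the members and 10.7% of all THSs. Among the receptors 13 of 56 THSs were higher and 6 lower. PYR1 THS_44035 had 0.83 ± 0.20 (SE, adjusted p = 0.0074), with means of 174.4 in MMC and 156.4 in M against 87.8 in GMC and 89.5 in GC. Among the remaining SnRK2 kinases 5 of 32 THSs were higher and 2 lower. SnRK2.10 THS_11875 had 0.77 ± 0.20 and SnRK2.5 THS_64112 -0.64 ± 0.20. Among the transcription factors 6 of 34 THSs were higher and 4 lower, and ABF4 THS_32528 had -0.93 ± 0.22. The THS_55389 of SLAH3, an anion channel related to SLAC1, had 0.84 ± 0.19 and the guard cell target RBOHF -1.06 ± 0.26 at THS_12787. Of the 17 THSs of the remaining clade A phosphatases 2 were higher and 2 lower, with a median log2 fold change of -0.18. HAI1 THS_62953 had 0.62 ± 0.19 and HAI2 THS_01562 -0.70 ± 0.23. Each THS named here had the smallest p of its gene and was chosen after the values were seen. Among the guard cell targets 4 of 36 THSs were higher and 4 lower, and no THS of the 38 genes was called in GC against the other states (limma; 11 with an unadjusted p under 0.05; 175 tested).

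The ABRE core ACGTG, on either strand, stood in the 200 bases around the midpoint of 13 of the 44 members (29.5%) and of 23.4% of all THSs. The longer word ACGTGNC, which contains it, stood in 5 members (11.4%) and 8.54% of all THSs, at HAB1 (2 THSs), PP2CA (2) and AHG1 (1). GAGAGAGA stood in 4 members (9.09%) and 5.002% of all THSs, among them the start THSs of OST1 and SnRK2.2. Of the 7 members called higher in MMC and M 4 held ACGTG, and of the 5 called higher in GMC and GC 0 did, as in the sequences printed above. Over all THSs the shares were 29.4% and 19.0%. A match describes the letters and not the binding of a factor.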

How the data were processed

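The 16 ATAC-seq libraries were grouped by their labels into 5 states. According to the methods of the study, the authors mapped reads to TAIR10 with bowtie2, took cut positions from both fragment ends, pooled MACS2 peaks and published open regions into a list of THSs and counted cuts on each. The deposited table holds signal values, which are these cutcounts divided by the authors by a DESeq2 size factor per library. Values came out whole (100% in each library, within 0.1 of a step) when divided by the library's step, which gave back the cutcounts. A further value column (1) matched no library and was not used. Gene bounds came from the TAIR10.1 RefSeq annotation, and 0 THSs lay past a chromosome end. THS starts are given from base 1.

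Values plus a pseudocount of 1 were put on the log2 scale, so that fold changes of weak THSs are understated, and fitted with limma 3.58.1 in R 4.3.3 (5 state means, trend, robust), without a filter. Benjamini-Hochberg adjustment ran over all 65351 THSs, and an adjusted p under 0.05 was called. edgeR 4.0.16 on recovered cutcounts was an alternative chosen after the data were seen. Other scalings, pseudocounts, filters, covariates, member rules and libraries left out were also tried. The share of reads in peaks came from the supplement of the study, which lists fewer reads for M replicate 1 than it has cutcounts. Named were the strongest THS per kb of each gene, every member called in the 5-state, MMC and M against GMC and GC, or GC comparison, and the 5 THSs most like the member with the smallest p. Members, lists and tests were chosen with earlier results of these data known.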

Additional observations from a re-analysis of the deposited data

Results flagged for a closer look

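Among the 16 named THSs, 2 had a single M library far from the other M libraries, in each case replicate 1 and on the low side (gap over range past Dixon's 95% critical value for 4 samples, which chance passes in about 1 of 20 groups). At ABI2 THS_62367 M replicate 1 had 324.5 scaled cutcounts and the other M libraries 705.0 to 706.3, with a gap of 0.996 of the range. At PP2CA THS_30422 M replicate 1 had 222.8 and the others 451.6 to 489.3, with a gap of 0.859 of the range. Its total of 6568866 cutcounts lay inside the range of the M libraries, and its share of cutcounts on the top 10% of THSs was 44.8%, the lowest of the M libraries.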

How the results depend on the processing

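The first comparison, early (MMC, M) against late (GMC, GC), called 12 members, and 6 with cyclic loess, 4 with the top-share covariate, 0 with the share of reads in peaks as covariate (limma; 4 with an unadjusted p under 0.05) and 4 at an adjusted p under 0.01. The count ran from 6 to 19 when a single library was left out. It was 6 without MMC replicate 3 (16.2%), 7 without GMC replicate 1 (17.6%) and 19 without M replicate 1 (48.4%). The step from M to GMC called 6 members (10.7%) and 3 with only the states compared (8.85%). It called 0 without trend and robust (0.00765%). With the share of reads in peaks it called 0 (0.00765%), and with the top-share covariate 0 (0.00459%). In these fits 7 to 11 members had an unadjusted p under 0.05 with limma. At an adjusted p under 0.01 it called 0 members and 5 of all THSs. With a library left out it called 0 to 16 members. The count was 3 without any single Proto library (5.73% to 6.85%). It was 2 without GC replicate 1 (5.77%) and 3 without GC replicate 2 or 3 (6.3% in each). The 5-state test called 0 members. It called 1 with scaling to total cutcounts (29 of the 65351 THSs) and 1 with a pseudocount of 5 (199 THSs). With at least 10 scaled cutcounts in every library it called 2 (1108 of 57536 THSs). It called 5 with limma-voom (5947 THSs) and 1 with edgeR (979 THSs). With a library left out it called 0 to 9 members. The count was 9 without M replicate 1 (17272 THSs), 6 without MMC replicate 2 (9422 THSs) and 2 without MMC replicate 3 (3593 THSs). The 175 THSs of the pathway lists had 48 calls, and 31 with cyclic loess, 6 with the top-share covariate, 0 with the share of reads in peaks, 11 at an adjusted p under 0.01 and 17 to 79 with a library left out. The lowest of these was without MMC replicate 3 and the highest without M replicate 1. The count was 24 without GMC replicate 1 (17.6%), 26 without GC replicate 2 (20.8%), 27 without GC replicate 1 (19.9%) and 29 without M replicate 4 (21.5%). The other comparisons called 0 members under each alternative run. Their causes were not tested. The check of replicate numbers gave correlations of -0.22 to 0.40 for libraries of the same number (30 pairs, mean 0.06). For libraries of different number it gave -0.67 to 0.63 (72 pairs, mean -0.03). These values do not show a pairing, and the labels do not say whether libraries of the same number were prepared together. With a replicate block the counts were 10, 1 and 2 in the first comparison, the M to GMC step and the 5-state test. Over all THSs the block called 18545, 402 and 3057. With the block and a GC correction the member counts were 8, 2 and 2, and 16330, 1152 and 4046 of all THSs were called.

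Scaling to total cutcounts moved the median log2 fold change of all THSs from -0.02 to -0.13 and the share of calls higher in MMC and M from 49.7% to 36.6%, and the members from 7 higher and 5 lower to 6 higher and 7 lower. The 12 called THSs kept their direction under the 30 alternative fits. Of the others, HAB2 THS_04022 was at -0.26 and SnRK2.3 THS_65094 at -0.32 with cyclic loess, AHG1 THS_60895 at 0.13 with the GC correction and 0.078 with block and GC correction, and OST1 THS_48276 at -0.073 with the share of reads in peaks. With 1 kb upstream 37 members stayed, of which 11 were called in the first comparison, and by midpoint 42, of which 12 were called.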
